A study of Mus musculus with 6 samples.

Results

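GABA-A receptor subunit genes were examined in striata of PGC-1alpha knockout mice. PGC-1alpha is the transcriptional coactivator encoded by Ppargc1a. A total of 7 genes was listed, namely Gabra2, Gabra4, Gabrb1 and Gabrg1, which lie together on chromosome 5, the chromosome of Ppargc1a, and Gabra5, Gabrb2 and Gabrd, which lie elsewhere. They are 7 of the 12323 named genes that had a probe set bright enough to be tested. The array held 21 probe sets of the 7 genes that carry a single gene symbol, of which 17 were tested, at least 1 for each gene, and 4 were too dim. Gabra3, Gabrg3 and Gabrp, 3 further subunit genes with a tested probe set, complete the group of 6 subunits elsewhere. The members were chosen by their knockout against wild-type differences in signal on these arrays, set beside their place in the genome, so those differences are given as a description and no test is drawn from them.

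The study compared 3 PGC-1alpha null mice (PGC-1a-/-, here KO) with 3 wild-type mice (PGC-1a+/+, WT), all females aged 6 months, with 1 Affymetrix array of striatal RNA per mouse. The null allele is carried in every cell, and mice of both genotypes came from heterozygous founders. The strain of the mice, and how much of chromosome 5 was inherited together with the null allele, are not stated in the labels. One mouse, KO 3, is labelled cytoplasmic RNA where the other 5 are labelled total RNA, so values without it are given beside the results that rest on it. Values are MAS5 signals on a linear scale, already scaled by the authors to the same trimmed mean on each array. The 5 tested probe sets of Ppargc1a read 2.17-fold to 3.81-fold lower in KO, with no overlap between the groups. Of 10 marker genes of medium spiny neurons, the main cells of the striatum, 8 had a tested probe set. Their summed signal was 26700 to 29340 in KO and 24720 to 29320 in WT. By the brightest probe set of each gene, 7 of the 8 were higher in KO and 1 lower. The median log2 difference was 0.08, and 48.9% of all probe sets tested were higher in KO.

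GABA-A receptors are chloride channels built of 5 subunits, and GABA opens them to inhibit the neuron. Alpha and beta subunits form the GABA binding sites, a gamma subunit next to an alpha subunit forms the benzodiazepine site and helps to place receptors at synapses, and receptors with the delta subunit sit outside synapses and give a steady, tonic inhibition. In the striatum nearly all principal cells release GABA, and alpha2 and alpha4 are among the subunits of medium spiny neurons. Subunit genes lie in clusters in the genome. In RefSeq gene order (GRCm38.p6) the chromosome 5 cluster runs Gabrg1, Gabra2, Gabra4, Gabrb1, and 45 named genes with a tested probe set lie between Ppargc1a and Gabrg1.

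Because the genes of the cluster differed between genotypes to unequal degrees, the sequence just before the start site is shown for Gabra2, the subunit gene with the largest difference between genotypes in the cluster, for Gabrg1, its neighbour on the same strand, and for the second listed start of Gabrb1. Each is the 250 bases before the start, from RefSeq on GRCm38.p6, and capitals mark a match to a searched motif. Gabra2 is chr5:71095850-71096099 on the minus strand, Gabrg1 is chr5:70842618-70842867 on the minus strand, and the Gabrb1 window is chr5:71699682-71699931 on the plus strand.
Gabra2: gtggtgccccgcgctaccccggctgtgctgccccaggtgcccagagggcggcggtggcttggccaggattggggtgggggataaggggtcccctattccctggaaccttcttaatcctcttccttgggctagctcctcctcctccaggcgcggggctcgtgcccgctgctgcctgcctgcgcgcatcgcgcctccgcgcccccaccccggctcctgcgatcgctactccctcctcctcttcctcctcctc
Gabrg1: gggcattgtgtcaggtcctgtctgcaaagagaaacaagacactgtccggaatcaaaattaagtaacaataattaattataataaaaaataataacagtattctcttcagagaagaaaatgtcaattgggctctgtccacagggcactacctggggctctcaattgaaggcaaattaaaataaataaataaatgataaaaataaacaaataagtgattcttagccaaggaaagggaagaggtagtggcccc
Gabrb1, second start: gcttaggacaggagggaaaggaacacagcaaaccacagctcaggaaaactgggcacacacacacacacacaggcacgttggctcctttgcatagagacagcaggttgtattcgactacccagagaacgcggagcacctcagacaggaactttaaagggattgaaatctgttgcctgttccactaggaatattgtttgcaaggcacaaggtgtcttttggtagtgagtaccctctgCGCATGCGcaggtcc
The neighbours differed in base composition, with 70.0% G and C before Gabra2 and 35.6% before Gabrg1, against a median of 52.4% over 32851 promoter windows. The share was 61.2% before Gabra4, and 64.4% and 50.8% before the first and second listed starts of Gabrb1. A link between base composition and the differences in signal was not tested. Motifs of 3 factors linked to PGC-1alpha were searched on both strands. They were CGCATGCG of NRF1 and TCAAGGTCA of the estrogen-related receptors, both of which PGC-1alpha coactivates, and TGACGTCA of CREB, which acts on Ppargc1a itself. Among the 13 windows of the 10 tested subunit genes the NRF1 motif was found in 1, the Gabrb1 window shown, against 1.55% of all windows, and no other searched motif overlapped it. The other motifs were in 0 of the 13, against 0.387% of all windows for the estrogen-related receptor motif and likewise 1.55% for the CREB motif.

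Gabra2, which encodes the alpha2 subunit, read higher in every KO mouse than in any WT mouse, by about 1.7 to 1.8 times, in all 3 of its tested probe sets. Its brightest probe set (1455444_at) read 858.5, 890.7 and 747.8 in KO 1, 2 and 3 and 373.3, 463.9 and 562.1 in WT 1, 2 and 3. The lowest KO signal there was 1.33 times the highest WT signal. The means were 832 ± 75.0 in KO and 466 ± 94.4 in WT (SD, n = 3), which on the log2(signal + 16) scale is a difference (KO minus WT) of 0.83 (SE 0.13), a fold of 1.78.

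The next Gabra2 probe set (1421738_at) read 554.8, 579.0 and 515.2 in KO and 257.9, 356.2 and 336.6 in WT. Its difference was 0.78 (SE 0.12), a fold of 1.71. The third (1443865_at) was the most even, with 349.1, 358.1 and 368.5 in KO and 180.6, 187.3 and 212.2 in WT. Its difference was 0.84 (SE 0.10), a fold of 1.79, and its lowest KO signal was 1.65 times its highest WT signal. The 3 differences thus lay within 0.07 of each other, less than the SE of any of them. WT 1 gave the lowest signal in each of the 3 probe sets.

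Another 2 probe sets of Gabra2 lay under the signal of 26.8 used as the filter and were not tested. One (1449807_x_at, a kind that Affymetrix marks as able to bind related transcripts) averaged 22.7 in KO and 26.1 in WT, and the other (1420299_at) 11.5 and 5.63. Neither shows the pattern at a readable level.

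**Figure D1:**
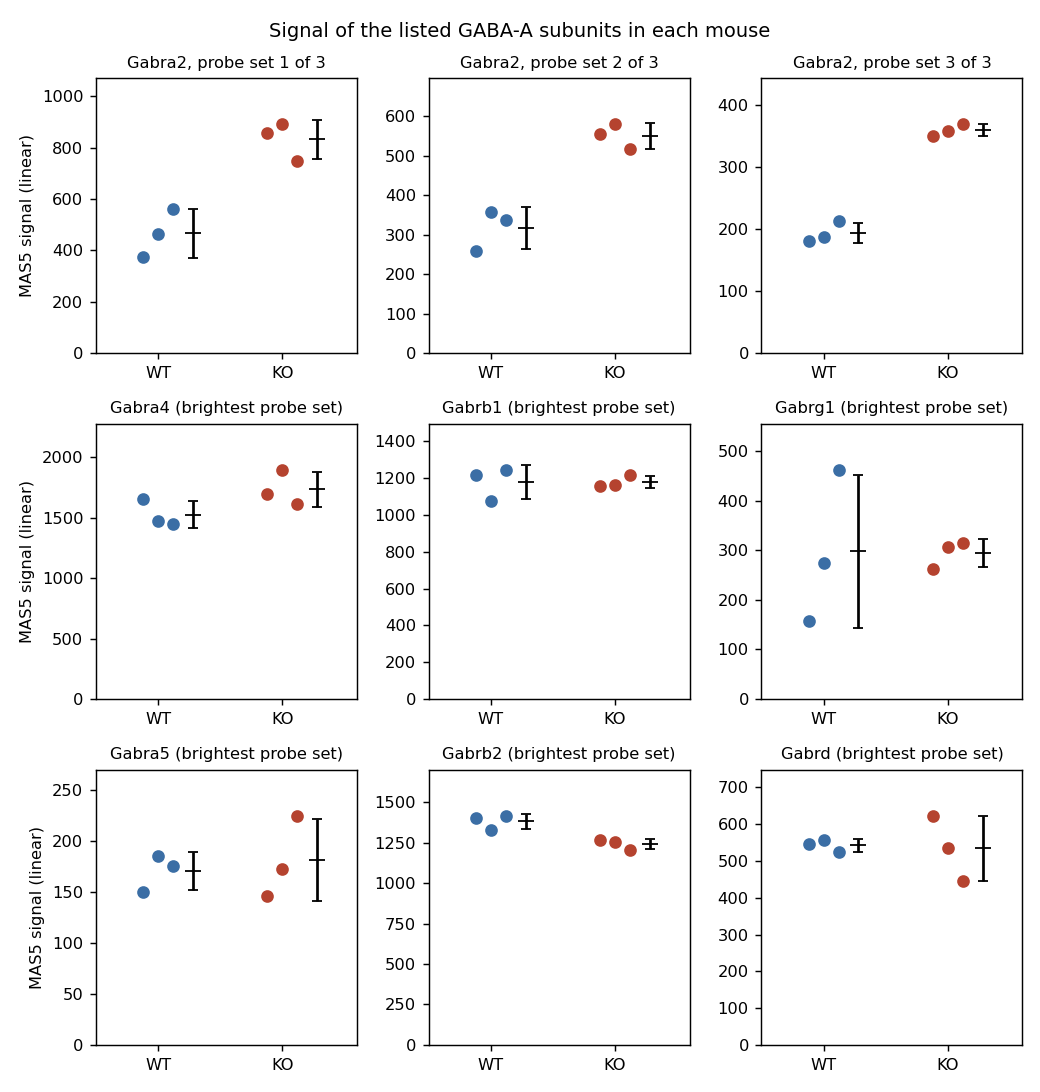
MAS5 signal (linear, from 0) in each mouse for the 3 tested probe sets of Gabra2, numbered from the brightest, and for the brightest probe set of each other listed subunit; points are mice and bars to their right give the mean ± SD (n = 3). The KO points of Gabra2 lie above all WT points in each of its 3 panels, while those of Gabra4, Gabrb1, Gabrg1, Gabra5 and Gabrd overlap WT and those of Gabrb2 lie below WT.

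All 3 tested Gabra2 probe sets were among the 48 called higher in KO at an adjusted p under 0.05 in limma, which is 0.178% of the 27022 probe sets tested. In both directions 127 were called, 0.470% of those tested. They were the only ones called among the 17 tested probe sets of the listed genes and among the 23 of all 10 subunit genes. The list was drawn from this contrast, so nothing is read from that share. Without KO 1 or without KO 2 only 1 of the 3 was called, without WT 2 it was 2, with no filter on dim probe sets it was also 2, and without the intensity trend in the variance model it was 0. The third probe set stayed called without any 1 mouse. Without KO 3, the mouse labelled cytoplasmic RNA, all 3 were called, with differences of 0.90, 0.82 and 0.82. Leaving out WT 1, the lowest WT mouse, brought the differences down to 0.68, 0.64 and 0.80.

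Gabra4, the alpha4 subunit that pairs with delta in receptors outside synapses, lies next to Gabra2 among the tested genes. Its brighter probe set (1433707_at) read 1693.6, 1893.6 and 1616.2 in KO and 1652.4, 1472.0 and 1450.8 in WT, so KO 3 lay below WT 1 and the groups overlapped. The difference was 0.18 (SE 0.08), a fold of 1.14. KO 1 and KO 2 lay above all WT mice, and without KO 3 the difference was 0.23. The dimmer one (1429330_at) differed by 0.05 (SE 0.09), again with overlap.

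Gabrb1, the beta1 subunit, starts beside Gabra4 on the opposite strand, and its brightest probe set (1419719_at) hardly differed. It read 1159.1, 1165.5 and 1216.0 in KO and 1216.6, 1075.3 and 1244.7 in WT, a difference of 0.00 (SE 0.08). Its other tested probe sets gave 0.14 (SE 0.09) and -0.26 (SE 0.16), in opposite directions and with overlapping groups. One more Gabrb1 probe set was below the filter.

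Gabrg1, the gamma1 subunit, had the widest spread among WT mice of the 4 chromosome 5 subunit genes by their tested probe sets. Its brighter probe set (1460408_at) read 263.0, 306.9 and 315.4 in KO, and 156.5, 274.3 and 461.4 in WT 1, 2 and 3. The WT mice thus spanned 2.95-fold and enclosed all KO mice, which spanned 1.20-fold. The dimmer probe set (1427227_at) had the same order of WT mice, with 99.1, 119.7 and 208.2. Both gave small differences, 0.11 (SE 0.26) and 0.12 (SE 0.20), so neither a change nor its absence can be read at this spread.

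Among the subunits elsewhere, Gabrb2, the beta2 subunit encoded on chromosome 11, read slightly lower in KO throughout. Its brightest probe set (1429685_at) read 1264.2, 1257.5 and 1206.2 in KO and 1403.0, 1328.4 and 1416.6 in WT. The means were 1243 ± 31.7 and 1383 ± 47.5 (SD, n = 3), with no overlap, and the difference was -0.15 (SE 0.07). All 5 Gabrb2 probe sets were lower in KO, from -0.26 to -0.15, a signal up to 16.3% lower. None of the 5 was called, and they measure 1 gene in the same 6 mice. Among them 1428205_x_at is of the kind that Affymetrix marks as able to bind related transcripts. The groups did not overlap in 4 of the 5, against 7.88% without overlap and lower in KO over all probe sets tested. In the dimmest (1450319_at) KO 1 reached into the WT range. That dimmest probe set gives the -0.26 and the 16.3%, and it read 223.4, 178.5 and 145.9 in KO. Its difference was -0.12 without KO 3 and -0.40 without KO 1. Without KO 3 the other 4 ran from -0.20 to -0.13.

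Gabrd, the delta subunit, did not separate the genotypes. Its tested probe set (1449980_a_at) read 622.9, 535.6 and 446.1 in KO and 547.1, 557.8 and 523.9 in WT, so KO mice lay on both sides of the narrow WT range, with a difference of -0.03 (SE 0.11) that turned to 0.09 without KO 3. Gabra5, the alpha5 subunit, which is most abundant in hippocampus and cortex, read 146.1, 172.5 and 224.3 in KO and 149.7, 185.3 and 175.4 in WT, a difference of 0.07 (SE 0.15). KO 3 was its highest mouse, and without it the difference was -0.09. KO 3 also had the highest summed signal of 5 tested cortical neuron markers, 1116, against 494 and 509 in the other KO mice and 462 to 965 in WT, but the next highest, WT 1, had nearly the lowest Gabra5. The part of cortical tissue in the Gabra5 values was not tested.

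The 3 subunit genes that were not listed were dimmer or uneven. Gabra3, the alpha3 subunit on the X chromosome, differed by 0.00 (SE 0.15) and -0.10 (SE 0.18). Gabrg3, the gamma3 subunit, had 3 tested probe sets that disagreed, at 0.20, -1.70 and 0.46. The second of these (1439717_at) read 0.7, 91.6 and 80.9 in KO and 146.9, 147.1 and 207.6 in WT. KO 1 lay far below the other KO mice there, the SE was 0.52, and without KO 1 the difference was -0.83. Gabrp, the pi subunit, known mainly outside the brain, averaged 26.6 in KO and 46.3 in WT, near the filter, with a difference of -0.55 (SE 0.19). A further 5 subunit genes, Gabra6, Gabre, Gabrq, Gabrr1 and Gabrr2, had no probe set above the filter.

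**Figure D2:**
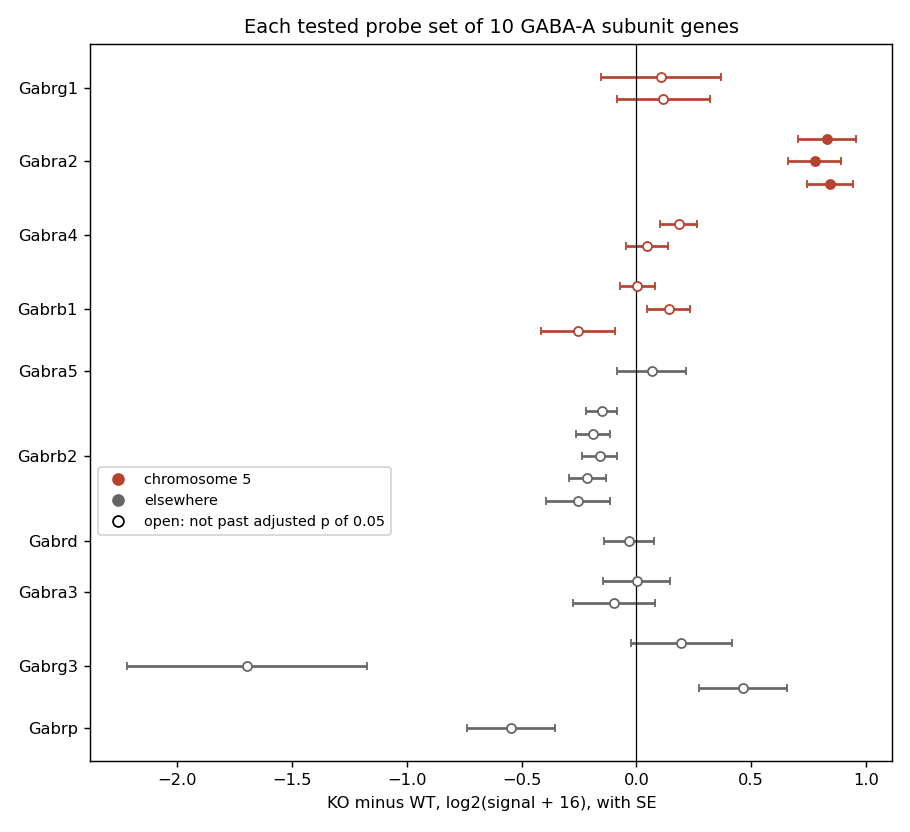
KO minus WT difference on the log2(signal + 16) scale with its SE for each of the 23 tested probe sets of the 10 subunit genes, red for chromosome 5 and grey for elsewhere, filled where the adjusted p was under 0.05. The 3 filled points, all Gabra2, lie between 0.78 and 0.84, and the other chromosome 5 points between -0.26 and 0.18.

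Taking all tested probe sets, 9 of the 10 on chromosome 5 were higher in KO, against 4 of the 13 elsewhere and 48.9% of all probe sets tested. The groups did not overlap for 3 of the 10, all Gabra2 and all higher, and for 6 of the 13, all lower. Over all tested probe sets 14.4% did not overlap, 6.52% higher and 7.88% lower. Probe sets of 1 gene share their transcript and are not independent, and the 6 without overlap come from only 3 genes, Gabrb2, Gabrg3 and Gabrp.

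By the brightest probe set of each gene, the 4 chromosome 5 genes had a median difference of 0.15 and the 6 elsewhere one of -0.02, while the median over all probe sets tested was 0.00. The gap between both medians was 0.16. With each array centred on its median the medians were 0.19 and 0.03, so the sign of the second depends on scaling. In each mouse, relative to the WT mean, the chromosome 5 median was 0.07, 0.24 and 0.14 in KO 1, 2 and 3 and -0.12, -0.02 and 0.18 in WT 1, 2 and 3, so WT 3 lay among the KO mice. For the subunits elsewhere it was -0.16, -0.01 and -0.02 in KO and -0.04, 0.08 and 0.04 in WT, also with overlap. The gap itself was 0.23, 0.25 and 0.16 in KO and -0.08, -0.10 and 0.14 in WT, without overlap but with WT 3 close to KO 3. Without WT 3 the chromosome 5 median was 0.31 and the gap 0.33. Without KO 3 the chromosome 5 median was 0.15, the median elsewhere -0.08 and the gap 0.23. Without Gabra2, an alternative added after seeing the data, the chromosome 5 median was 0.11 and the gap 0.12. In each mouse that gap was 0.14, 0.17 and 0.11 in KO and 0.09, -0.13 and 0.04 in WT, without overlap, the smallest KO and largest WT values lying close together. With only the 3 listed genes elsewhere the gap was 0.18. The cluster as a group therefore showed no shift of the size seen in Gabra2.

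**Figure D3:**
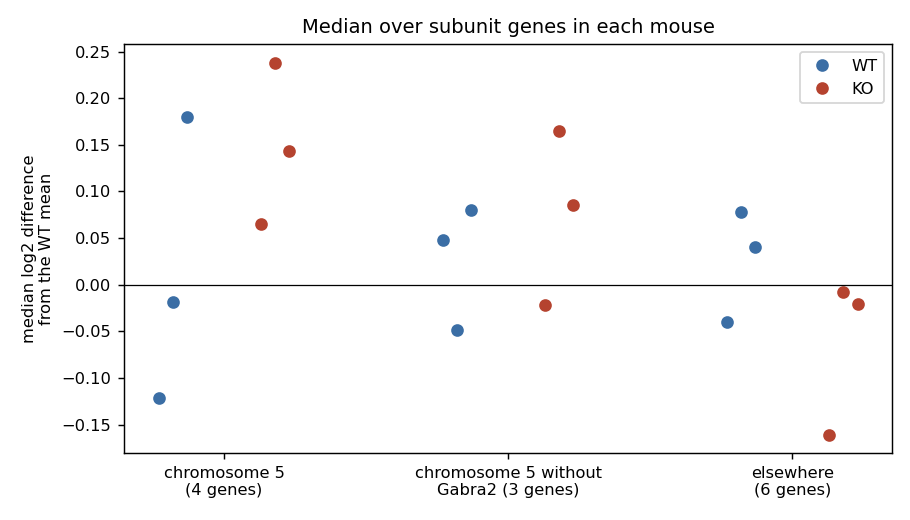
Median over subunit genes of the log2(signal + 16) difference from the WT mean, in each WT (blue) and KO (red) mouse, for the chromosome 5 genes, the same without Gabra2, and the subunits elsewhere. WT and KO points overlap in each of the 3 columns, with WT 3 at 0.18 and KO 1 at 0.07 in the first.

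The genes around the cluster were described by position alone, taking the 10 genes with a tested probe set on each side. No other tested gene lies between the outermost subunits. Of these 20 genes 10 were higher and 10 lower in KO by their brightest probe set, with a median of 0.00. Of their 42 probe sets 2 were called, both lower, against 0.292% called lower over all probe sets tested, and 9 showed no overlap, against 14.4% over all probe sets tested. No neighbour was called higher, and their largest positive difference was 0.35, in Atp10d.

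Uchl1, a neuronal ubiquitin hydrolase 10 tested genes before Gabrg1, fell from 2457 ± 221 in WT to 1805 ± 149 in KO (SD, n = 3; difference -0.44, SE 0.08, limma adjusted p = 0.0457). It read 1724.2, 1713.7 and 1976.6 in KO and 2607.4, 2560.8 and 2203.3 in WT. That call held in 5 of 14 alternatives, with an adjusted p of 0.0239 to 0.356 over them, and it ended when any of KO 1, KO 2, WT 1 and WT 2 was left out.

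Atp8a1, a lipid flippase 5 tested genes before Gabrg1, was called lower in only 1 of its 7 tested probe sets (1423597_at). That probe set read 915.3, 805.1 and 907.0 in KO and 1411.9, 1424.3 and 1197.6 in WT (difference -0.61, SE 0.09, limma adjusted p = 0.00875). The others ran from -0.14 to 0.23 and did not pass, with the brightest (1433827_at) at 0.09. Among them 1454728_s_at, at 0.23, went the opposite way to the called probe set, also without overlap. It read 951.9, 905.3 and 917.4 in KO and 770.3, 844.0 and 754.0 in WT. The call of 1423597_at held in 13 of 14 alternatives and was lost without the intensity trend (limma adjusted p = 0.236).

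**Figure D4:**
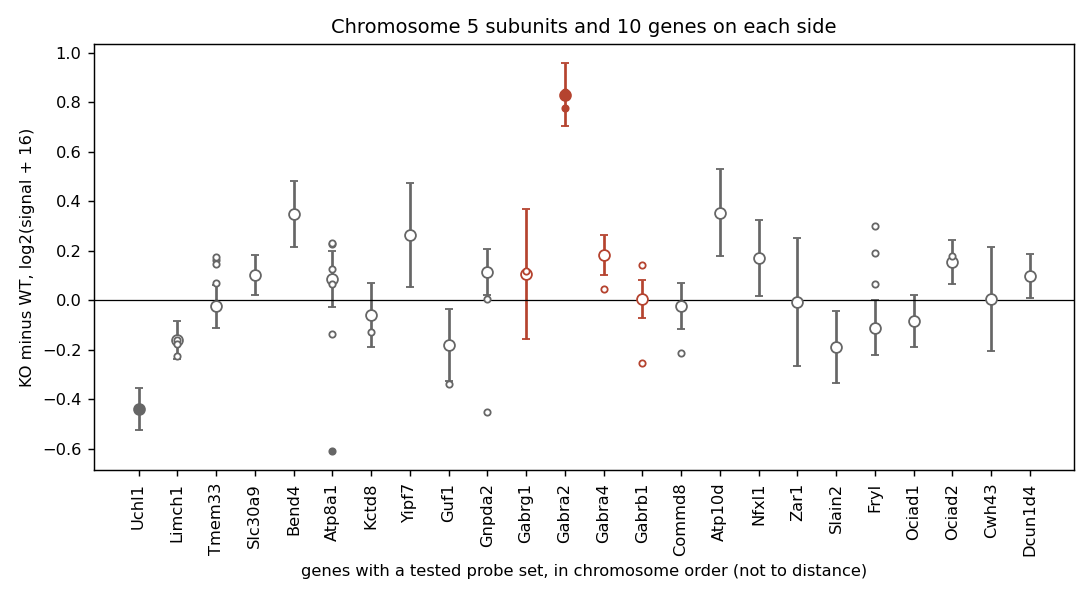
KO minus WT difference on the log2(signal + 16) scale for the 4 chromosome 5 subunits (red) and the 10 genes with a tested probe set on each side (grey), in chromosome order and not to distance. Large points with SE are the brightest probe set of a gene, small points its other probe sets, and filled points had an adjusted p under 0.05. Gabra2 stands at 0.78 to 0.84, above all others shown, and the lowest point, at -0.61, is an Atp8a1 probe set.

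The genes that make, move and anchor GABA and its receptors were taken from 5 lists by role, with 45 of 52 genes tested. By their brightest probe set 20 were higher and 25 lower in KO, with a median of -0.03, and 1 of their 91 probe sets was called, against 0.470% of all probe sets. That probe set belongs to Trak2, a kinesin adaptor known to bind GABA-A receptor beta subunits. Trak2 (1435016_at) read 634.7, 621.9 and 648.7 in KO and 888.0, 870.8 and 826.4 in WT, and fell by 0.43 on the log2 scale (SE 0.07, limma adjusted p = 0.028). Its second probe set, averaging 36.3 in KO and 59.4 in WT, differed by -0.53 without passing (limma adjusted p = 0.47). The Trak2 call held in 5 of 14 alternatives (adjusted p 0.0226 to 0.284). It was lost without any 1 mouse other than WT 3, and also under the replicate block, median centring, no filter and a variance model with no trend.

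In the scaffold and traffic list 10 of 22 tested genes were higher and 12 lower, and no other gene than Trak2 was called. The other 4 lists had 0 called probe sets in limma. Over all 27022 probe sets tested, 2478 had an unadjusted limma p under 0.05. By the brightest probe set 1 of 7 tested genes of synthesis, transport and breakdown did, and 1 of 8 of chloride balance. In GABA synthesis, transport and breakdown 3 of 7 tested genes were higher and 4 lower (median -0.03). Its members with the smallest p were Slc6a11, the astrocytic GABA transporter GAT-3, at 0.31 (limma adjusted p = 0.454), and Aldh5a1, which clears succinic semialdehyde, at -0.17 (0.599). For the GABA-B receptor and its partners, 3 of 6 were higher, with Gabbr1, a subunit of that receptor, at 0.08 and Kcnj6, a potassium channel it opens, at 0.40, neither passing. Kcnj6 averaged 36.7 in KO and 24.3 in WT, near the filter. In the chloride balance list 4 of 8 were higher. There Stk39, a kinase that acts on chloride cotransporters, gave 0.20 by its brightest probe set. Its probe set 1419550_a_at gave 0.34, without overlap. Car2, a carbonic anhydrase, gave -0.26, also without overlap, and none of these passed. Of the receptor modulators Dbi, the diazepam binding inhibitor, gave -0.07 and Tspo, a mitochondrial protein that also binds benzodiazepines, -0.33, neither passing.

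Markers of tissue next to the striatum varied between mice, and the alpha4 and delta subunits are also abundant in thalamus. Of 8 thalamus markers 7 had a tested probe set, all 7 higher in KO by their brightest probe set (median 0.67). While 2478 of the 27022 probe sets tested had an unadjusted limma p under 0.05, 3 of these 7 genes did by that probe set, with 0 called. Their summed signal was 1405, 1538 and 1245 in KO 1, 2 and 3 and 1822, 417 and 757 in WT 1, 2 and 3, so WT 1 lay above and the other WT mice below all KO mice. The lowest single signal among the 7 was 18.9, for Lef1 in WT 3, under the signal of 26.8 that the filter required on average. Gabra2 was lowest in WT 1, where the thalamus markers were highest. Both Gabra4 probe sets read higher in WT 1 than in the other WT mice, as the thalamus markers did. Gabrd did not, with 547.1, 557.8 and 523.9 in WT 1, 2 and 3. In the dimmer Gabra4 probe set all KO mice also read below WT 1, as in the thalamus sum. In the brighter Gabra4 probe set KO 1 and KO 2 read above WT 1, and WT 2 above WT 3, unlike that sum. Gabrg1, like Gabra2, was lowest in WT 1, but it was highest in WT 3. The part of thalamic tissue in the values of Gabra2, Gabra4, Gabrd and Gabrg1 was not tested.

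Choroid plexus markers were higher in KO, the direction of Gabra2. Of 4 such markers 2 had a tested probe set, and their summed signal was 3715, 2625 and 3104 in KO and 1285, 1577 and 2239 in WT, without overlap. Nearly all of it was Ttr, transthyretin, which choroid plexus makes in large amounts. All 4 called probe sets of this list, of 5 tested, were of Ttr and higher in KO, against 0.178% called higher over all probe sets. The brightest (1454608_x_at, of the kind marked as able to bind related transcripts) rose by 0.91 on the log2 scale (SE 0.17, limma adjusted p = 0.0347). Over 14 alternatives its adjusted p ran from 0.00286 to 0.303, and the call was lost in 6, including without KO 1, KO 3, WT 1 or WT 2. Kcnj13, a potassium channel of that tissue, differed by 0.23 with overlapping groups. Genes listed as parvalbumin interneuron markers had a median of -0.34 over 5 tested genes, 2 higher and 3 lower in KO. Pvalb (-0.64), Kcnc1 (-0.34) and Syt2 (-0.78) were lower, and Tac2 (0.41) and Lhx6 (0.21) higher. Tac2 was entered in the list as Tac3 and matched through its synonyms. In limma 0 were called. An unadjusted limma p under 0.05 was found for 3 of the 5, against 2478 of the 27022 probe sets tested. The summed signal of the 5 genes was 1198, 1629 and 1099 in KO and 2383, 1438 and 1620 in WT. The part of choroid plexus or of parvalbumin neurons in the subunit values was not tested. In tissue RNA of this kind, fewer cells of a type and less RNA per cell cannot be told apart.

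The genes whose brightest probe set followed a subunit most closely over the 6 mice were ranked among 12313 named genes by Pearson's r, as a description. With only 6 arrays and so many genes, values above 0.97 were reached for every listed subunit. For Gabra2 they were Smap2 (0.99), Spast (0.99) and 2900052N01Rik (0.98), whose groups did not overlap but whose differences, 0.14, 0.14 and 0.27, were smaller than that of Gabra2. For Gabra4 they were Gm9866, Psph and Asb3, for Gabrb1 they were Id2, Snx14 and Hps1, and for Gabrg1 they were Ripor3, Atcay and Akap5. For Gabra5 they were Zfp13, Apold1 and Cmas, for Gabrb2 they were 4930456A14Rik, Gm20324 and Bcap29, and for Gabrd they were Sdf4, Ifitm3 and Lrrc4. None of these 21 genes was called, and Psph alone is on chromosome 5.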

How the data were processed

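The authors made the deposited linear intensity values, 1 per probe set and array, with MAS5 per the submitters' processing notes, which name no version or settings. After trimming 2% of the values at each end, the mean was 150.0 on every one of the 6 arrays, so changes are relative to the rest of the array. Of 45101 probe sets, 64 controls were left out. Symbols came from the platform annotation (34945 probe sets with 1 symbol, 932 with several, 9160 unnamed), updated through RefSeq GRCm38.p6.

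Signals were taken as log2(signal + 16), which understates changes of dim probe sets. A mean log2 value above the 40th percentile (a signal of 26.8) was required, leaving 27022 probe sets. KO and WT were compared with limma 3.58.1 in R 4.3.3 (lmFit, eBayes with an intensity trend), adjusted by Benjamini-Hochberg over all 27022, with 0.05 as threshold. The procedure was tested on simulated data in which probe sets varied independently, unlike real probe sets of the same gene. No result given here rests on that test. The number of arrays, 3 per group, limits precision.

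The members, the lists and the rule for named genes were chosen with earlier results of these data known. Named are the listed subunits by all probe sets, Ppargc1a, called genes of each pathway list and of the neighbours (without any, the 2 with the smallest p), and the 3 genes most like each member. Other genes named were chosen after their values were seen. Alternatives were an offset of 1 or 64, quantile normalization, median centring, no filter or the 60th percentile, no trend, the replicate number as a block, leaving out each array, and, for the medians, averaging the probe sets of a gene.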

Additional observations from a re-analysis of the deposited data

How the results depend on the processing

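With 3 arrays per group, the count over all probe sets, 127, was 52 with no filter and 25 without the intensity trend, and 65 to 102 without 1 array. The members called, 3, were 0 without the intensity trend, 2 with dim probe sets kept in, and 1 to 3 without 1 array. The count of called GABA pathway probe sets, 1, was 0 with median centring, no filter, no trend or the replicate block, and 0 to 1 without 1 array. Without WT 1 the count was 1, but the Trak2 probe set called with all arrays was not called there. The 2 called neighbour probe sets were 1 with an offset of 1, median centring, no filter or the replicate block, 0 without the trend, and 1 to 2 without 1 array. The chromosome 5 median, 0.15, ran from 0.10 to 0.31 without 1 array and the gap to the subunits elsewhere, 0.16, from 0.15 to 0.33. The median elsewhere, -0.02, was -0.12 when the probe sets of a gene were averaged and ran from -0.08 to -0.01 without 1 array. Why these settings changed the counts was not tested. Under the 14 alternatives the Gabra2 differences ran from 0.64 to 0.97.

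The replicate numbers do not pair the mice: deviations of same-numbered mice correlated at -0.01, -0.03 and 0.02. With the replicate block 100 probe sets were called in all, and the 3 of Gabra2 among them.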
